A study of Homo sapiens with 4 samples.

Results

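The noncoding transcripts MIR210HG, NMRAL2P, NEAT1, MALAT1 and H19 were followed in KYSE170 cells exposed to EDHB. KYSE170 is an established cell line from a human oesophageal squamous cell carcinoma. EDHB, ethyl-3,4-dihydroxybenzoate, inhibits the iron-dependent and 2-oxoglutarate-dependent prolyl hydroxylases that mark the hypoxia-inducible factors (HIF) for degradation. Total RNA was hybridised to Affymetrix arrays, with 2 arrays for a 12 h exposure to EDHB at 50 µg/ml and 2 for untreated cells. Both groups are the same cell line grown in the same serum-containing medium. The untreated cultures are not said to have received a vehicle, and nothing in the labels says whether replicates were separate cultures.

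The transcripts were found through the platform annotation of the probe sets, the array's units of measurement. Of 54613 probe sets, 15 were listed with exactly 1 of the named genes. They were 2 of MIR210HG, 1 of NMRAL2P and 12 of MALAT1, which makes 3 genes among 19775 with such a probe set. NEAT1 and H19 had none of this kind. Their 9 and 2 probe sets are listed jointly with a microRNA gene, MIR612 and MIR675, that the RefSeq gene table (GRCh38.p14) places within the longer transcript. The values of these 11 are given below as those of the NEAT1 and MIR612 probe sets and of the H19 and MIR675 probe sets. MIR210HG and NMRAL2P became members because of their change in this same comparison. The changes of all 5 transcripts are therefore described and not tested.

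As deposited, the rows of replicate 2 are ordered differently from those of replicate 1. They were put back into order for 54467 probe sets, among them 25 of the 26 of these transcripts. Levels are log2 of the deposited intensity, and a change is EDHB minus untreated in log2 units. Replicate 1 needs no restoring, so its change is given apart. Of 12 squamous epithelial markers, 9 were measured, and 8 of these lay above the level of the median probe set (4.54). Of 12 measured markers of fibroblasts, endothelium and blood, 8 lay below it, and the highest was COL1A1 at 6.37. Summed over these 12, linear intensity was 260 and 283 in EDHB cells, against 258 and 283 in untreated cells. KRT14, a basal keratin, was the squamous marker below the median.

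MIR210HG is the host transcript of miR-210, a microRNA that HIF induces in many human cell types and that is widely used as a marker of hypoxia. NMRAL2P is a transcribed pseudogene related to NMRAL1, an NADPH-sensing protein, and is known in human cancer cells as a target of NRF2, the transcription factor of the antioxidant response. NEAT1 is the architectural RNA around which paraspeckles, bodies of RNA-binding proteins in the nucleus, assemble. MALAT1, its neighbour on chromosome 11, is an abundant nuclear RNA that gathers in nuclear speckles, where splicing factors are stored. H19 is an imprinted transcript, made from the maternal copy, and hosts miR-675.

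The microRNAs carried by 2 of these transcripts are shown because the arrays read the long host RNA and not the mature product. All 4 are RefSeq entries on the minus strand of chromosome 11 in GRCh38.p14, and capitals mark the seed, bases 2 to 8. Both of miR-210 lie within MIR210HG (miR-210-3p at chr11:568112-568133, miR-210-5p at chr11:568150-568171) and both of miR-675 within H19 (miR-675-3p at chr11:1996768-1996787, miR-675-5p at chr11:1996800-1996822). The 4 seeds differ from each other.
hsa-miR-210-3p: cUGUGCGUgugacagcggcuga
hsa-miR-210-5p: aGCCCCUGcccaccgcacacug
hsa-miR-675-5p: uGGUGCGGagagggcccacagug
hsa-miR-675-3p: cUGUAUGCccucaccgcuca

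The promoters of MIR210HG and MALAT1 are shown because MIR210HG had the largest change of the 5 and MALAT1 the most probe sets. Each runs from 250 bases before the RefSeq start site to 50 bases after it, at chr11:568408-568707 on the minus strand for MIR210HG and at chr11:65497488-65497787 on the plus strand for the upstream start of MALAT1 (GRCh38.p14). Capitals mark matches, on either strand, to ACGTG or GCGTG, the core of the hypoxia response element, and to TGACNNNGC, the core of the antioxidant response element.
MIR210HG: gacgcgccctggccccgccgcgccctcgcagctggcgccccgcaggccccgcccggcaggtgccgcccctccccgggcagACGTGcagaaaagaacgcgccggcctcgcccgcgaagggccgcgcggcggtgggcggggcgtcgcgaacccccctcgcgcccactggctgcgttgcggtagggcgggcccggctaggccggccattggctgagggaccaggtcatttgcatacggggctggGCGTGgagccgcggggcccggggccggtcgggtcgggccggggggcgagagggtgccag
MALAT1: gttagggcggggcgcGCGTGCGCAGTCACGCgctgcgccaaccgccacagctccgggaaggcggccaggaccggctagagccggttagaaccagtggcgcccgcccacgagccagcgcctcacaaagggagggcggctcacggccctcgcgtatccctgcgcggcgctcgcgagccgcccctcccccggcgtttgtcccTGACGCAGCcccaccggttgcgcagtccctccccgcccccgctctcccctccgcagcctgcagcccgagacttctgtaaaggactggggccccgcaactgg

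The MIR210HG window held ACGTG with its first base at -170 and GCGTG at -9 relative to the start site, both read on the strand of the transcript, and 0 matches to TGACNNNGC. Neither match lay within CACGTG, the E-box that overlaps ACGTG. The MALAT1 window held GCGTG at 2 places and TGACNNNGC at 2 places, and 3 of these 4 matches lay in 1 overlapping run that starts at -235. The window of a further start site of MALAT1 held 1 GCGTG, and that of H19 had none of these letters. Such matches are common. Among 35116 RefSeq promoter windows of this length, 21.4% held ACGTG, 36.5% held GCGTG, 48.4% held either and 13.3% held TGACNNNGC. In 23.1% of them ACGTG or GCGTG stood at 2 or more places, as in both windows shown. NMRAL2P and NEAT1 are named here without a promoter.

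MIR210HG was far higher after EDHB on both of its probe sets. On 236480_at its log2 level was 5.06 and 5.15 in EDHB cells, against 2.92 and 2.85 in untreated cells. The 2 arrays of each group lay close together and the groups did not overlap. The change was 2.14 within replicate 1 and 2.29 within replicate 2, a mean of 2.21, or 4.64-fold. Since the median probe set stood higher than both untreated arrays, MIR210HG is not shown to be above background there, and this fold is uncertain. On 230710_at the level was 5.999 in EDHB replicate 1, against 3.99 in untreated replicate 1, a change of 2.01. The untreated level is again below the median probe set, with the same limit on the fold. For this probe set the replicate 2 values fell short of the minimum for restoring (posterior 0.936, minimum 0.95). Its most likely replicate 2 values were 5.92 for EDHB and 4.16 for untreated cells, a change of 1.76.

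NMRAL2P was measured by 1 probe set, 241418_at. Its log2 level was 7.52 and 7.54 in EDHB cells, against 5.69 and 5.57 in untreated cells. The groups did not overlap, and both untreated arrays lay above the median probe set. The change was 1.83 within replicate 1 and 1.97 within replicate 2, and the mean of 1.90 equals 3.73-fold. NMRAL1, the related protein-coding gene, had levels of 9.12 and 9.08 in EDHB cells, against 9.29 and 8.95 in untreated cells. Its arrays overlapped, with changes of -0.18 and 0.14 within replicates 1 and 2.

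**Figure D1:**
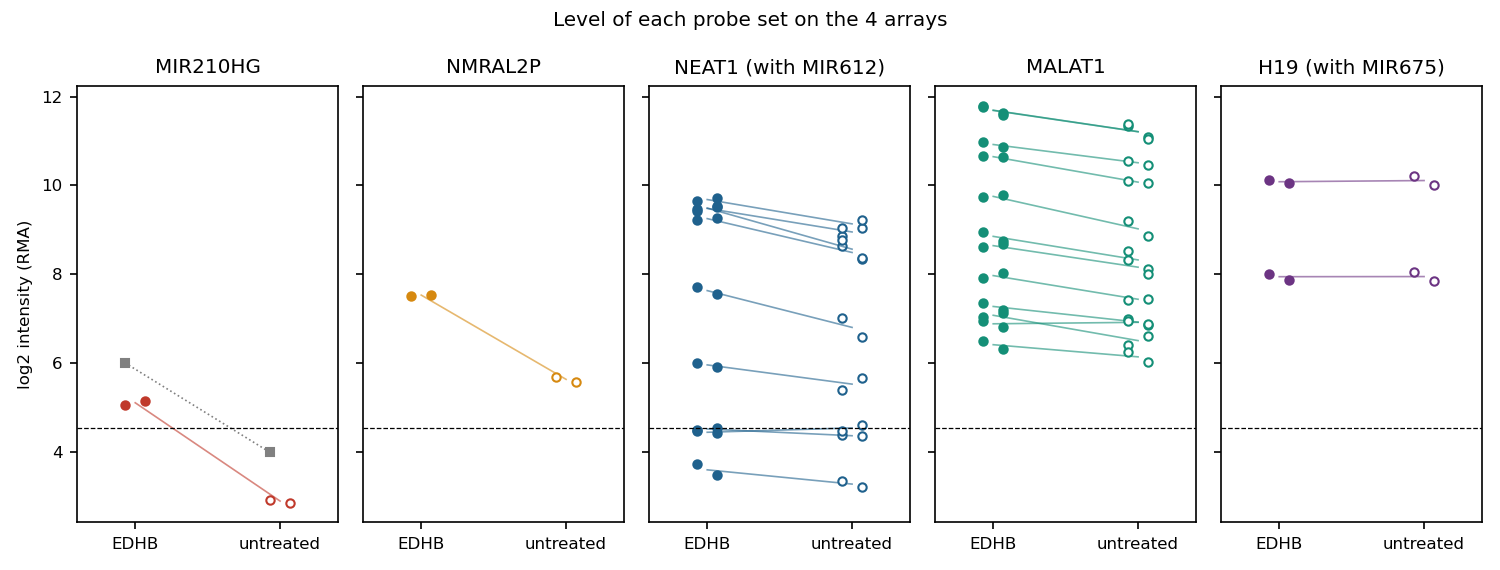
Log2 intensity of every probe set of the 5 transcripts in EDHB cells (filled circles) and untreated cells (open circles), 2 arrays per group, with lines joining the group means and the dashed line at the median probe set (4.54). Grey squares show replicate 1 of the MIR210HG probe set whose replicate 2 values were not restored. The lines of MIR210HG and NMRAL2P slope most steeply and those of H19 are flat.

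The NEAT1 and MIR612 probe sets were mostly higher after EDHB, each by less than 2-fold. Of the 9, 8 had both EDHB arrays above both untreated arrays and 1 overlapped. Over all 54467 restored probe sets, 20.2% had both EDHB arrays above both untreated arrays. The probe sets of 1 transcript share their RNA and are not independent, so the count of 8 is not 8 separate observations. On the brightest, 224566_at, the log2 level was 9.64 and 9.72 in EDHB cells, against 9.04 and 9.22 in untreated cells. The mean change was 0.55, or 1.46-fold.

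The size of the NEAT1 change depended on the probe set. The largest was on 234989_at, with 9.47 and 9.50 in EDHB cells against 8.76 and 8.37 in untreated cells, a mean change of 0.93 (1.90-fold). On 227062_at and 225239_at the mean changes were 0.83 and 0.76, and on 224565_at and 214657_s_at they were 0.53 and 0.43. Which of the 2 untreated arrays was higher differed between these probe sets. Untreated replicate 1 lay above untreated replicate 2 by 0.28 to 0.42 on 225239_at, 227062_at and 234989_at, and below it by 0.16 to 0.28 on 214657_s_at, 224565_at and 224566_at. The first 3 had the larger changes within replicate 2 (0.93 to 1.14) and the other 3 within replicate 1 (0.56 to 0.62). The remaining 3 probe sets, 220983_s_at, 238320_at and 239269_at, had mean levels below the median probe set and changes between -0.10 and 0.32.

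MALAT1 was higher after EDHB on 11 of its 12 probe sets, by 0.27 to 0.73. All 12 lay above the median probe set. The 11 had both EDHB arrays above both untreated arrays, where 25.7% of all restored probe sets at or above the median level had (and 26.6% had both EDHB arrays below). That placement makes the same 11 higher within each replicate too, so this is not a further observation. Of all restored probe sets, at any level, 28.2% were higher within both replicates. Over the 12 probe sets the median change was 0.48, or 1.40-fold, with medians of 0.43 within replicate 1 and 0.55 within replicate 2. On the brightest, 224567_x_at, the level was 11.76 and 11.62 in EDHB cells, against 11.38 and 11.03 in untreated cells. The 2 EDHB arrays lay above both untreated arrays by at least 0.23, a gap smaller than the 0.35 between the untreated arrays themselves. The change on this probe set, 0.48, was 0.31 when untreated replicate 2 was left out.

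The spread among MALAT1 probe sets was wide relative to the change. The largest was on 224558_s_at, with 9.73 and 9.77 in EDHB cells against 9.19 and 8.85 in untreated cells, a mean change of 0.73. The exception was 224559_at, with 6.95 and 6.81 in EDHB cells against 6.94 and 6.89 in untreated cells. Its arrays overlapped and its mean change was -0.03. Of the 12 names, 7 end in x_at, Affymetrix's mark for probes that may also bind other transcripts. Those 7 had changes between 0.27 and 0.57 (median 0.48), and the other 5 between -0.03 and 0.73 (median 0.49).

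On the H19 and MIR675 probe sets the groups overlapped. On 224646_x_at the level was 10.11 and 10.05 in EDHB cells, against 10.21 and 10.01 in untreated cells. On 224997_x_at it was 8.01 and 7.87 in EDHB cells, against 8.04 and 7.85 in untreated cells. The mean changes were -0.03 and -0.00, with both probe sets lower within replicate 1 and higher within replicate 2. Both names end in x_at. All 4 arrays lay above the median probe set on both. The change was smaller than the distance of 0.20 between the untreated arrays.

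**Figure D2:**
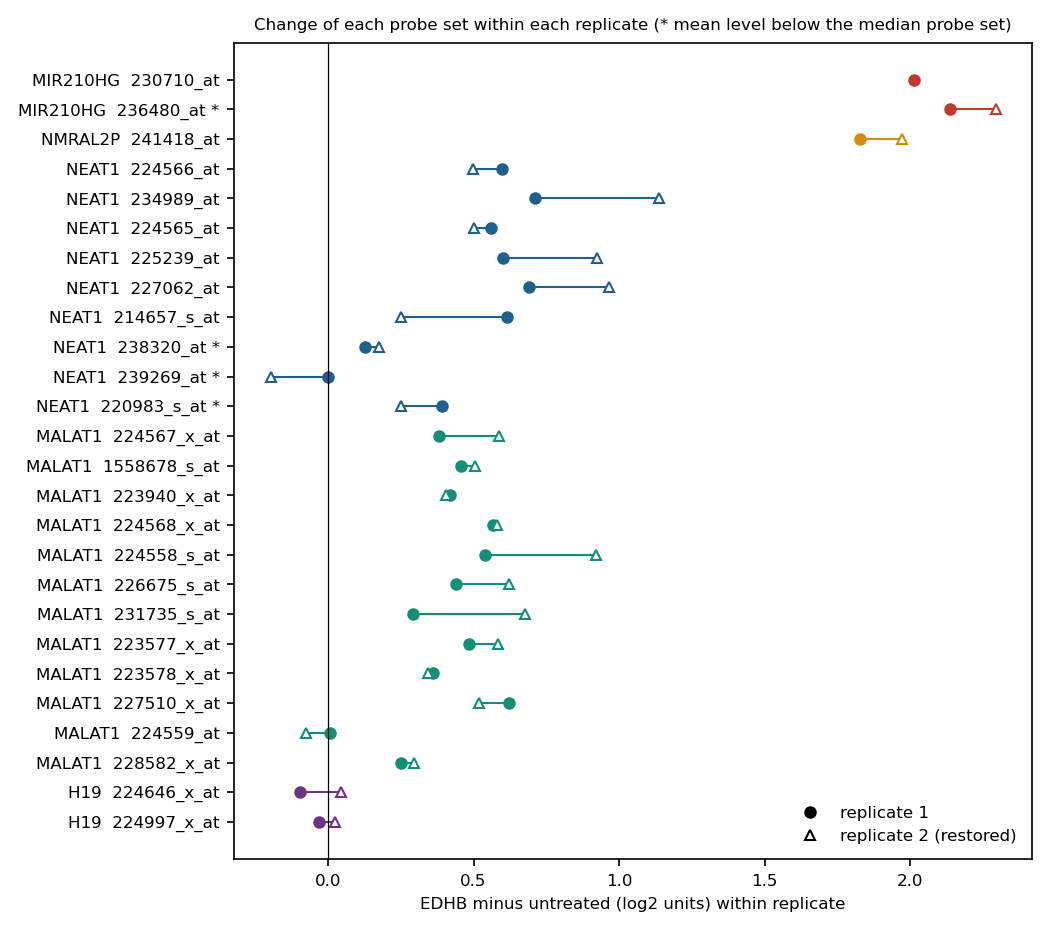
Change (EDHB minus untreated, log2 units) of each of the 26 probe sets within replicate 1 (filled circles) and replicate 2 (open triangles), grouped by transcript and ordered by level, with stars on probe sets below the median level. MIR210HG and NMRAL2P lie near 2, most NEAT1 and MALAT1 probe sets between 0.25 and 1.14, and H19 beside 0.

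Among the genes with a restored probe set, few moved as far as MIR210HG and NMRAL2P. The change reached 1 log2 unit (2-fold) within both replicates in 20 of 19752 genes that were higher (0.101%) and in 6 that were lower (0.0304%). Both of these numbers may be too low. As described below, replicate 2 listed its changes of 2-fold or more apart. Of the rows in those lists 118 were restored, fewer than the lists hold, so strongly changed rows were lost more often than others. Among all genes, limma without an intensity trend called 2 genes (0.0101%), MIR210HG and NMRAL2P, which is how they came to be chosen, so nothing is read from these calls. With a trend of the prior variance on intensity, limma called 475 genes (2.4%), 271 higher (1.37%) and 204 lower (1.03%). Without the trend, 3341 genes (16.9%) had an unadjusted p under 0.05. Both counts of calls fell to 0 when any 1 of the 4 arrays was left out and when the replicate number was fitted as a block. Because replicate 2 rows were matched on their likeness to untreated replicate 1, the spread of the untreated group may be narrowed.

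**Figure D3:**
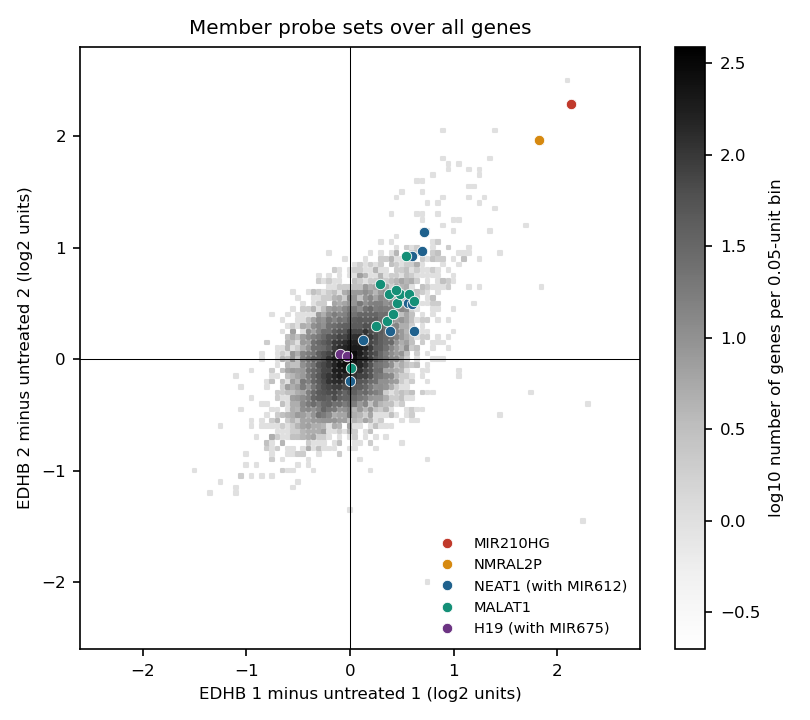
Change within replicate 1 against change within replicate 2 (log2 units) for 19752 genes, binned and shaded by number, with the 25 restored probe sets of the 5 transcripts as coloured points. MIR210HG and NMRAL2P stand at the upper right edge, while NEAT1 and MALAT1 lie inside the upper part of the cloud and H19 at its centre.

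The genes whose values over the 4 arrays were nearest to those of MIR210HG and NMRAL2P were each other. Likeness was the root mean square distance between the 4 values after centring each gene on its own mean, and MIR210HG and NMRAL2P were 0.16 log2 units apart. Next to MIR210HG came NDRG1, a stress-induced growth regulator (0.23), GDF15, a stress cytokine (0.34), CCNG2, an atypical cyclin that restrains the cell cycle (0.35), and SLC1A4, a transporter of neutral amino acids (0.37). Next to NMRAL2P came SLC1A4 (0.22), CCNG2 (0.23), CLIC4, an intracellular chloride channel protein (0.24), and GDF15 (0.24). With 2 arrays a group, this measure mostly reflects the size of the change, which was 2.30 for NDRG1, 1.73 for GDF15, 1.56 for CCNG2, 1.48 for SLC1A4 and 1.45 for CLIC4. One of the 2 other probe sets of GDF15, and 1 of the 2 of CCNG2, went the other way.

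Of the 2 nearest measured genes on each side of a transcript, ETV5 was the one called, and only with the intensity trend in limma. That fit called 2.4% of all genes, so a single call here is not read as a result about these loci. Beside MIR210HG, changes were 0.12 for RASSF7, -0.07 for LMNTD2-AS1, -0.26 for PHRF1 and 0.19 for IRF7. Beside NMRAL2P, they were -0.13 for the splicing factor gene TRA2B and 0.22 for IGF2BP2-AS1 on one side, and -0.05 for DGKG on the other. The gene nearest on DGKG's side, ETV5, a transcription factor of the ETS family, had log2 levels of 6.80 and 6.77 in EDHB cells, against 5.92 and 6.06 in untreated cells. This change of 0.80 was called higher with the intensity trend (limma, adjusted p = 0.0225) but not without it (adjusted p = 0.0803), and the 4 other probe sets of ETV5 gave -0.07 to 0.41. Around NEAT1 and MALAT1, which lie next to each other among the measured genes, changes were 0.30 for SLC25A45, 0.13 for FRMD8, 0.13 for LTBP3 and -0.06 for ZNRD2-DT. Around H19 they were -0.08 for MRPL23, -0.01 for TNNT3, -0.08 for IGF2-AS and -0.07 for INS. Besides ETV5, other probe sets of the opposite sign were found for LMNTD2-AS1 (2 of 2), IGF2BP2-AS1 (2 of 3), FRMD8 (3 of 3), LTBP3 (1 of 2) and TNNT3 (1 of 1).

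**Figure D4:**
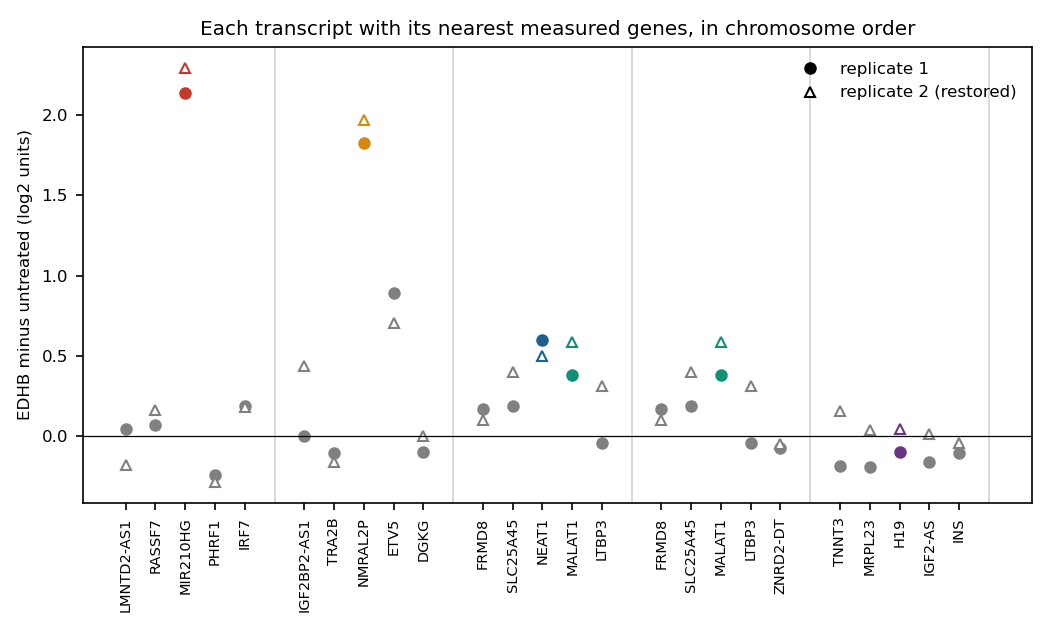
Change (EDHB minus untreated, log2 units) within replicate 1 (filled circles) and replicate 2 (open triangles) for each transcript on its brightest restored probe set (coloured) and for the 2 nearest measured genes on each side (grey), in chromosome order. MIR210HG stands about 2 units above its neighbours, and ETV5 beside NMRAL2P is the grey gene furthest from 0.

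Hypoxia-induced genes, the class to which MIR210HG belongs, were mostly higher. Of 36 measured members of the list, 16 rose and 1 fell with the intensity trend in limma, against 2.4% of all genes called, and 19 did not pass. The limma fit without the trend called 0 of them and had 26 (72.2%) below an unadjusted p of 0.05, against 16.9% of all genes. The list median was 0.42, against -0.00 over all genes. NDRG1 rose with levels of 8.89 and 9.53 in EDHB cells, against 6.79 and 7.04 in untreated cells. DDIT4, an inhibitor of mTORC1 signalling, rose by 1.34, the mitophagy receptor BNIP3L by 1.34 and the angiogenic factor VEGFA by 1.32. The 3 other probe sets of VEGFA gave 0.66 to 0.71. DDIT4 and BNIP3L changed by 0.89 and 0.93 within replicate 1, against 1.79 and 1.74 within replicate 2. The member that fell was JMJD6, a lysyl hydroxylase, with 7.92 and 7.80 in EDHB cells against 8.31 and 8.36 in untreated cells, and 1 of its 3 other probe sets had the other sign.

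NRF2 targets, the class of NMRAL2P, were called in 1 direction. Of 29 measured members, 7 rose and 0 fell with the intensity trend, 22 did not pass, and the median was 0.26. Over all genes 1.37% were called higher and 1.03% lower. Limma without the trend called 0 of these, and 15 (51.7%) were below an unadjusted p of 0.05, against 16.9% of all genes. AKR1C3, an aldo-keto reductase, rose with levels of 10.49 and 10.53 in EDHB cells, against 9.11 and 9.17 in untreated cells. GCLC, the catalytic subunit of glutathione synthesis, rose by 1.07, and AKR1C2 and AKR1C1 by 1.04 and 1.00. The 2 other probe sets of AKR1C2 gave 0.02 and 1.26, and the 3 others of AKR1C1 ran from 0.06 to 1.01. The AKR1C genes are near copies of one another, so their probe sets may not tell them apart. In both lists the trend calls also fell to 0 without any 1 of the 4 arrays.

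No gene encoding a protein listed as working with NEAT1 or MALAT1 was called. Of all genes, 2.4% were called with the trend, a share at which lists of this size hold few or none. Of 18 genes for paraspeckle proteins, 0 were called by limma with or without the trend, and the median change was -0.13. In limma without the trend, 6 (33.3%) had an unadjusted p under 0.05, against 16.9% of all genes. Both EDHB arrays lay above both untreated arrays in 2 of the 18 and below them in 9, where 23.3% and 22.6% of all genes did so. The 2 above were NONO (0.09), an essential core protein, and NUDT21 (0.23, with 1 of 2 other probe sets of the other sign). RBM14 and CPSF6, the members with the largest changes, had -0.46 and -0.43, and 1 of the 2 other probe sets of RBM14 went the other way. Of 22 genes for nuclear speckle proteins, 0 were called in either fit, and the median was -0.10. In limma without the trend, 2 (9.09%) had an unadjusted p under 0.05, against 16.9% of all genes. The 2 were the kinase CLK4 (-0.42) and the splicing factor SRSF7 (-0.38), and 1 and 2 of their 3 other probe sets had the other sign. Both EDHB arrays lay below both untreated arrays in 11 of these 22 and above them in 1, SRSF5 (0.22, with 1 of 2 other probe sets of the other sign). Of 22 imprinted genes, the class of H19, 0 were called in either fit and the median was 0.03. Levels of 11 of these 22 lay below the median probe set, where a change is harder to see. The share with an unadjusted p under 0.05, 2 of 22 (9.09%), was below the 16.9% of all genes. The 2 were IGF2R, a receptor that clears the growth factor IGF2 (0.38, with 1 of 2 other probe sets of the other sign), and PPP1R9A, a neuronal actin-binding protein (0.34).

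Published targets of miR-210 were also looked at, since the arrays do not read the microRNA. Of 12 measured targets, 0 were called in either limma fit, 4 (33.3%) had an unadjusted p under 0.05 and the median change was 0.08. Over all genes the shares were 2.4% called with the trend and 16.9% under an unadjusted p of 0.05. GPD1L, a glycerol-3-phosphate dehydrogenase-like enzyme, had levels of 8.22 and 8.19 in EDHB cells, against 8.60 and 8.49 in untreated cells. Its change of -0.34 had an adjusted p of 0.0657 with the trend in limma. The others of the 4 were COX10, which works in haem A synthesis (-0.28, with 0.10 on its other probe set), the cell cycle factor E2F3 (-0.22) and CASP8AP2 (0.25). MNT, a repressor that pairs with MAX, had a mean change of 0.50, but 0.13 within replicate 1 and 0.88 within replicate 2. Its other probe set gave 0.01. ISCU, the iron-sulphur scaffold, had -0.11.

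Of 2693 other noncoding genes measured, 2 were called higher and 3 lower by limma with the intensity trend (0.186%, against 2.4% of all genes) and 0 without it. An unadjusted p under 0.05 was found for 290 (10.8%), against 16.9% of all genes, and both medians lay near 0 (-0.01 and -0.00). Most of them (2026) had levels below the median probe set. TMEM123-DT, a divergent transcript, had 7.002 and 7.35 in EDHB cells, against 6.27 and 6.22 in untreated cells. CCDC18-AS1 changed by 0.62, with 0.04 on its other probe set. EMSLR, RNASEH1-DT and SNHG4 were called lower, with -0.77, -0.60 and -0.58. Of 490 other pseudogenes, 2 were called higher with the trend, LOC154761 (0.99) and TPRXL (0.51), and 0 without it, with 66 (13.5%) at an unadjusted p under 0.05, so both shares (0.408% called) lay below those of all genes. Of 13 measured lncRNAs named elsewhere for responses to hypoxia or oxidative stress, 0 were called in either fit and 0 had an unadjusted p under 0.05. Among these the largest change was that of HOTAIR (0.37, below the median probe set), with 0.04 within replicate 1 and 0.71 within replicate 2. NORAD, an abundant RNA kept for genome stability, had 0.21.

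**Figure D5:**
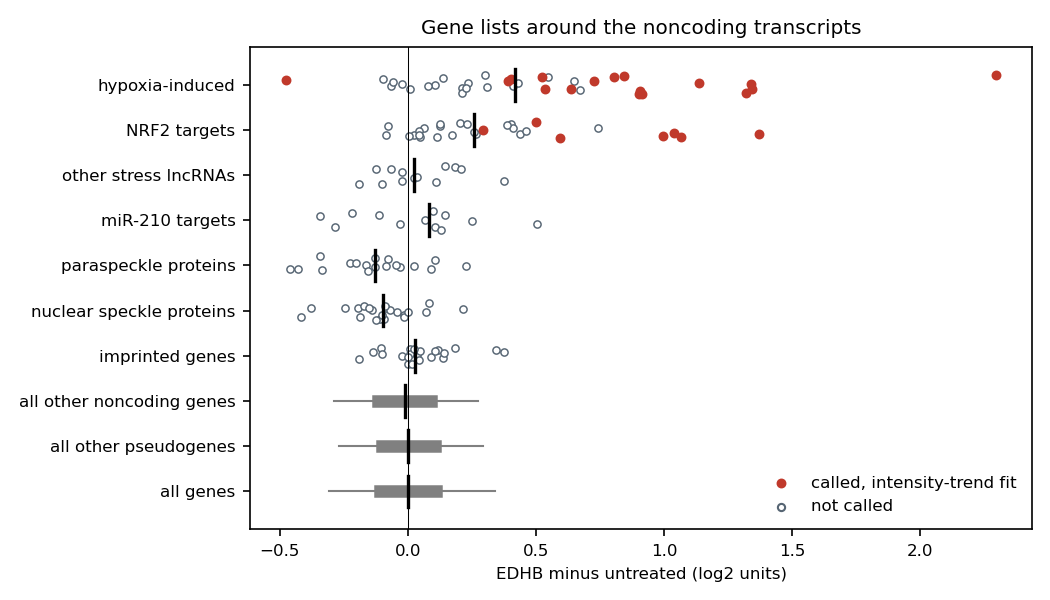
Change (EDHB minus untreated, log2 units) of the measured genes of 7 lists, 1 point per gene, filled red where limma with the intensity trend called it, with black bars at list medians. For all other noncoding genes, all other pseudogenes and all genes, thick and thin grey bars span the middle 50% and 90%. The hypoxia and NRF2 lists (medians 0.42 and 0.26) hold all the red points shown.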

How the data were processed

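RNA of the 4 samples was biotin-labelled and hybridised, per the labels' protocols. The authors deposited linear intensity values, 1 for each probe set in each sample. Per the submitters' processing notes they came from RMA, whose version is not given in the sources used here. This method equalises the arrays' distributions, so any global difference between them is lost. Values between 1.55 and 13393 were log2-transformed without a pseudocount.

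Replicate 2 followed the layout of a sheet sorted separately for that pair: 148 probe sets higher by 2-fold or more, 45 lower by as much, then 54419 others, each block in ID order, with the remaining row of the table empty in both replicate 2 columns. No label records this layout, which was inferred from the values. A forward-backward alignment of the untreated arrays (Student's t density, scale 0.15, 3 degrees of freedom) restored the order, and rows with a posterior of 0.95 or more were used. The EDHB arrays then correlated at 0.997 across probe sets, against 0.418 as deposited.

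For each of 19752 genes, the brightest probe set among those restored and listed with 1 gene was used. The groups were compared on all 4 arrays with limma 3.58.1 in R 4.3.3, using lmFit and eBayes without a block, and genes with a Benjamini-Hochberg adjusted p under 0.05 were called. The fit had 2 residual degrees of freedom. Its p-values reflect only how far these arrays lay apart, which may be technical, and their number limits the precision. Alternatives were the intensity trend, a replicate block, centring, cyclic loess, other posterior minimums, other probe set rules, a filter on dim probe sets and leaving out each array. Named genes were the members, their nearest measured genes, the 5 genes most like a member that changed by at least 1 log2 unit in both replicates, and up to 4 leading genes of each list. JMJD6, NONO, NUDT21, SRSF5, COX10, E2F3, CASP8AP2, ISCU and SNHG4 were added after their values were seen. The members, lists and tests were chosen with earlier results of these data known. Promoter and microRNA sequences are those of RefSeq (GRCh38.p14). Scripts ran in Python 3.11.15.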

Additional observations from a re-analysis of the deposited data

How the results depend on the processing

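Over the alternatives run, the changes of NEAT1 and MALAT1 ran from 0.46 to 0.64 and from 0.31 (without untreated replicate 2) to 0.66. That of H19 ran from -0.13 to 0.07 and has no settled sign. Each moved by less than the replicate SD. With 2 arrays a group, leaving out 1 array cannot move a change beyond that SD, and the block cannot move it at all. Staying within the SD in those runs therefore does not show that the changes are firm. For MIR210HG the change was 1.89 with a posterior minimum of 0.5, which brings in its other probe set, and 2.14 with the replicate 1 pair only. That of NMRAL2P was 1.83 with the replicate 1 pair only. MIR210HG has no value with dim probe sets left out.

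The 2 calls over all genes became 475 with the intensity trend, 44 (32 higher, 12 lower) with arrays centred on their medians, 40 (30 higher, 10 lower) with cyclic loess, 51 with the mean of a gene's probe sets and 593 with dim probe sets left out (12400 genes). They became 0 with the replicate block, with a posterior minimum of 0.5, with every probe set on its own and without any 1 array (0 to 0). Replicate numbers pair the samples by number only, with a correlation of deviations of 0.09 between EDHB and untreated arrays. In alternatives chosen after seeing the data, the 475 trend calls became 994 and 1007 with the 2 scalings, 1200 without dim probe sets, 82 over probe sets and 0 with the block. Calls among hypoxia genes ran from 0 to 18 and among NRF2 targets from 0 to 8. The highest counts came with dim probe sets left out, with 18 of 32 hypoxia genes and 8 of 28 NRF2 targets. In that run 12 of 667 noncoding genes and 6 of 172 pseudogenes were called, against 593 of all 12400 genes.

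The hypoxia median was 0.53 without dim probe sets. Leaving out 1 array gave medians of 0.16 (without untreated replicate 2) to 0.29 for NRF2 targets, 0.026 to 0.11 for imprinted genes, 0.016 to 0.10 for miR-210 targets and 0.011 to 0.13 for the stress lncRNAs. The highest imprinted and stress lncRNA medians and the lowest of the miR-210 targets came without untreated replicate 1. The causes of these shifts were not tested. The number of arrays, 2 a group, limits all of them.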
